A study of Mus musculus with 31 samples.

Results

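The cytosolic ribosomal protein genes of the mouse were described across dendritic cells and spleens of Gpr34 knockout and wild-type animals. They were chosen by symbol alone: Rpl or Rps followed by digits and a short suffix, the stalk genes Rplp0, Rplp1 and Rplp2, and Rpsa, without pseudogenes whose symbols end in -ps and without the Rps6k kinases. The rule named 90 genes, 54 for the large (60S) and 36 for the small (40S) subunit, and the count files listed 29120 gene IDs. Of the 90 genes, 86 had counts in at least 1 library (50 of the large and 36 of the small subunit). Rpl10l, Rpl24, Rpl32l and Rpl41 had no line in any file, added nothing to the shares and were left out of evenness and tests. Whether these genes were in the annotation used for counting is not stated, so a missing line is not a measured level of 0. All 86 passed the filter on low counts in both sample types. The annotation types 6 of the 90 as processed pseudogenes, namely Rpl6l, Rpl32l, Rps3a2, Rps3a3, Rps4l and Rps12l1.

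A ribosome joins a small subunit, which reads the messenger RNA, to a large subunit, which forms the peptide bond. Apart from the stalk proteins, cytosolic ribosomal proteins are needed in equal amounts, and the messengers of these proteins mostly begin with a pyrimidine tract (the TOP motif) through which mTOR signalling controls their translation. Their genes have left many processed pseudogene copies in mammalian genomes, so reads of a ribosomal protein messenger often match several places.

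RNA was sequenced from bone-marrow-derived dendritic cells (antigen-presenting immune cells) and from whole spleens of C57BL/6 mice. For the cultures, marrow from male mice (8 to 16 weeks old) was grown for 10 days with supernatant of an X63 line that secretes GM-CSF, the growth factor that drives these cultures. The 4 dendritic cell groups held 3 libraries each: LPS-treated (8 h of lipopolysaccharide, a bacterial cell wall component) and naive cells labelled Gpr34-/-, and LPS-treated and naive wild-type cells. The spleen groups were 9 Gpr34-/- and 10 wildtype organs of mice aged 12 weeks. The labels do not say which animal gave each library, so p-values measure only the spread between these samples, which may be in part technical.

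Total counts were 38998746 to 74164853 per dendritic cell library and 56834377 to 133277070 per spleen. Of the 6 dendritic cell libraries labelled knockout, naive replicate 3 and LPS-treated replicates 3 and 4 held 120, 117 and 104 Gpr34 counts, so these 6 are called libraries labelled knockout throughout. Knockout spleen 4 had the highest haemoglobin share of the 19 spleens (23.7%), knockout spleen 6 the lowest share of ribosomal protein counts (1.9%) and knockout spleen 9 the highest (4.7%), and spleen shares are also given without these 3, which stood apart in earlier results of these data. The cultures held 16900 to 21200 CPM (counts scaled to the library total) of 14 dendritic cell and macrophage markers, against 7430 to 16200 CPM in the spleens. B cell markers summed to 1.59 to 9.6 CPM in the cultures and 1850 to 3600 CPM in the spleens, and red cell markers summed to 5.52 to 49.3 CPM in the cultures and 23000 to 159000 CPM in the spleens.

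The ribosomal protein genes took a smaller share of all counts in dendritic cells than in spleens. They held 0.949 to 1.56% of the counts in the 12 dendritic cell libraries (mean 1.23 ± 0.211%, SD) and 1.9 to 4.7% in the 19 spleens (2.73 ± 0.613%, SD). The ranges did not overlap, and the difference of -1.5 percentage points had p = 2e-05 in a two-sided permutation test over libraries, the smallest value that 100000 resamples give. Small subunit genes held the larger part in both, at 0.844 ± 0.127% in dendritic cells and 1.77 ± 0.389% in spleens, while large subunit genes held 0.387 ± 0.0848% in dendritic cells and 0.956 ± 0.227% in spleens (SD). In naive wild-type cells against wild-type spleens alone the difference was -1.15 points (exact permutation test, p = 0.00699, the smallest that 3 against 10 allows). In whole spleen, fewer cells of a type and less RNA per cell cannot be told apart. The files of the 2 sample types carry different name stems, so a difference of tissue and a difference of counting cannot be told apart either.

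**Figure D1:**
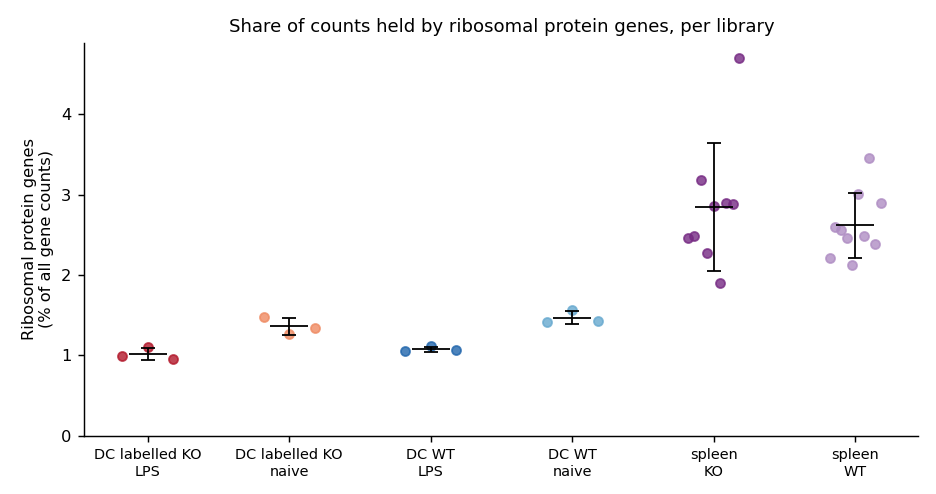
Share of all gene counts held by the 86 ribosomal protein genes (y axis, percent) in each library of the 6 groups (x axis, DC = dendritic cells). Points are libraries, long bars means and whiskers SD. All 12 dendritic cell libraries lie at or below 1.56%, and knockout spleen 9 lies highest at 4.7%.

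Levels of single members spread over more than 3 orders of magnitude in each sample type. Per kilobase of transcript, the scale used here whenever genes are set against each other, mean levels ran from 0.856 to 2290 CPM per kb in dendritic cells (median 22), with a lowest mean of 0.18 and a median of 142 CPM per kb in spleens. Of the 86 members, 31 lay under 10 CPM per kb in dendritic cells and 7 did in spleens. Among the highest in dendritic cells were Rps9, Rps27l, Rpl13a and Rps14, and among the highest in spleens Rps9, Rps21, Rpl13a and Rps14. The 5 lowest in dendritic cells were Rpl39l, Rps4l, Rps29, Rpl28 and Rpl5, and in spleens Rpl3l, Rpl39l, Rps4l, Rps29 and Rpl37.

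Rps9, a protein of the body of the small subunit, was among the most abundant in both. It lies at chr7:3703993-3706897 (plus strand, GRCm38) and averaged 2290 CPM per kb in dendritic cells and 4360 CPM per kb in spleens. In plain CPM it lay between 1300 and 2220 in dendritic cells (median 1620) and between 1850 and 5350 in spleens (median 3220). Its 2 ranges overlapped. Of all counts given to the members, Rps9 took 13.9 ± 0.529% in dendritic cells and 12.0 ± 1.22% in spleens (SD). The 5 most abundant members of each library together held 51.3 to 55.0% of the members' counts in dendritic cells and 39.7 to 46.3% in spleens.

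Most members were lower in dendritic cells, but by very unequal amounts. For 52 of 86 members (60.5%) every dendritic cell library lay below every spleen in CPM, against a background of 30.2% of the 16245 genes with a mean of at least 1 CPM in a sample type. Only Rpl3l and Rps27l (2.33%) lay above every spleen, against 12.6% of all genes. The median log2 ratio of dendritic cells over spleens was -1.51 over the members and -0.56 over all those genes. By their means 9 members were higher in dendritic cells, namely Rpl31, Rpl32, Rpl34, Rpl38, Rpl39l, Rpl3l, Rpl7l1, Rps26 and Rps27l, and 20 were at least 10-fold lower. The shares of all genes that meet these cuts are not given, so whether such counts are unusual cannot be said.

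The 5 members with the lowest ratio were Rps12l1, Rps6, Rpl15, Rps16 and Rps23. Rps6, the small subunit protein that S6 kinases phosphorylate, lay between 2.77 and 7.54 CPM in dendritic cells (median 6.17) and between 334 and 982 CPM in spleens (median 454), a mean 88.9 times higher in spleens. Rpl15, Rps16 and Rps23 were 52.9, 51.6 and 49.7 times higher in spleens. By comparison Rps3, a small subunit protein at the messenger RNA entry, was 1.88 times higher in spleens.

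Rps12l1 showed the lowest ratio. It is a processed pseudogene at chr7:56014016-56014414 (plus strand, GRCm38) whose transcript matches the coding sequence of Rps12, a small subunit protein encoded on chromosome 10, at all 396 aligned bases. The first 60 bases are shown for both, from the GENCODE M21 transcripts of GRCm38, because no base there separates reads of the pair.
Rps12l1: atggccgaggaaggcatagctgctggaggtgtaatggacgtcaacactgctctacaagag
Rps12: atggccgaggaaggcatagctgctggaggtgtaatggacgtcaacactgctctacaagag
Rps12l1 held 0.394 to 1.69 CPM in dendritic cells (median 1.13) and 287 to 956 CPM in spleens (median 507), a mean 510 times higher in spleens. Rps12 itself held 1.61 to 3.88 CPM in dendritic cells (median 3.26) and 5.25 to 10.5 CPM in spleens (median 7.25), a mean 2.55 times higher in spleens. The pseudogene thus held most counts of the pair in spleens, and both were low in dendritic cells. The sources used here do not say how reads matching several places were counted, so levels of such copies are uncertain.

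The tissue ratio moved with the sequence that a member shares with other genes. For each member, the 50-base words of its main transcript were looked up in the transcripts of all other genes of the annotation. Under 20% of words lay elsewhere for 13 members, among them Rps3, Rpl4, Rpl8 and Rpl22. The paralogues Rpl3l, Rpl39l and Rpl7l1 and the pseudogene Rps4l are also in this set. These 13 were at a median of 62.2 CPM per kb in dendritic cells and 92.6 CPM per kb in spleens, with a median fold of 1.88 higher in spleens. The 34 members with 20 to under 60% were at 39.2 and 133 CPM per kb, with a median fold of 2.55. The 39 members with 60% or more were at 17.1 and 152 CPM per kb, with a median fold of 6.98. Across the 86 genes Spearman's rho of shared words with the log2 ratio of dendritic cells over spleens was -0.57. It was -0.29 with the level in dendritic cells and 0.01 with the level in spleens. These describe the same libraries and genes that share sequence, which are not independent replicates, and no test was made. Pseudogenes with -ps symbols, which the rule leaves out, summed to 1510 to 2680 CPM in dendritic cells and 10200 to 24800 CPM in spleens. The part of shared sequence in the tissue difference was not tested.

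**Figure D2:**
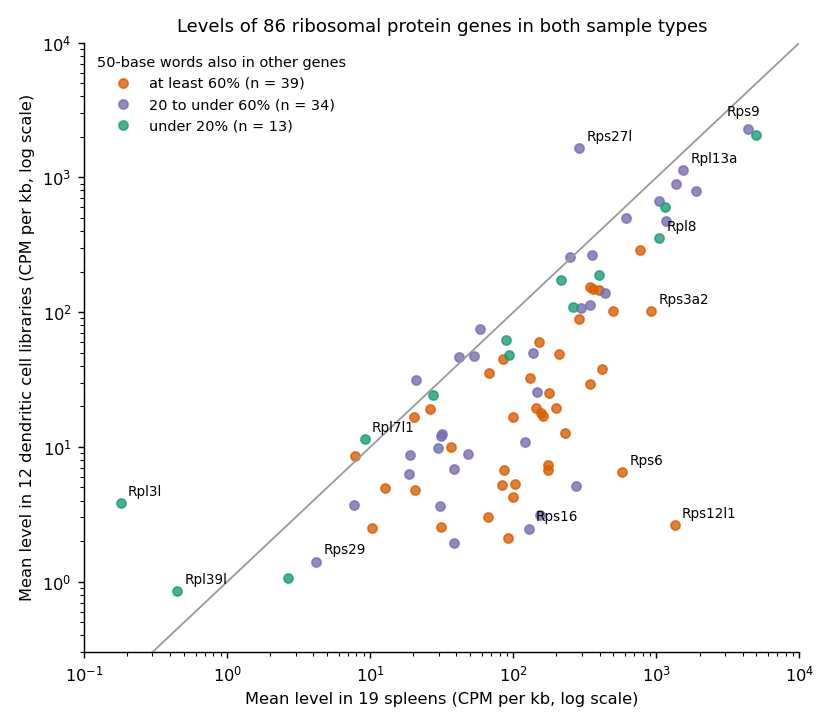
Mean level of each of the 86 members in dendritic cells (y axis) against spleens (x axis), both in CPM per kb on log scales, with colours for the share of 50-base words found in other genes and a line at equal levels. Members with 60% or more shared words lie mostly far below the line, and Rps27l and Rpl3l lie above it.

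Levels were less even among the members in dendritic cells. Evenness was taken as the Shannon entropy of the members' shares of CPM per kb, divided by its largest possible value, so that 1 means equal levels. It was 0.667 to 0.700 in dendritic cells (mean 0.686 ± 0.0129, SD) and 0.751 to 0.796 in spleens (0.773 ± 0.0144, SD). The ranges did not overlap, and the difference of -0.0873 had p = 2e-05 in the two-sided permutation test with 100000 resamples. Naive wild-type cells against wild-type spleens alone gave -0.0768 (exact permutation test, p = 0.00699). Within the cultures, evenness was 0.675 to 0.685 in LPS-treated cells labelled knockout and 0.667 to 0.676 in LPS-treated wild-type cells, against 0.696 to 0.700 in the 2 naive groups. Leaving out the paralogues, Rps27l among them, narrowed the range over the 12 dendritic cell libraries to 0.681 to 0.696. For that set LPS-treated and naive values are not given apart. Knockout and wild-type spleens were alike in range, at 0.755 to 0.792 and 0.751 to 0.796. Within each genotype the spleens separated by the number in their labels. Evenness was 0.755 to 0.769 in knockout spleens 1 to 5 and 0.751 to 0.767 in wild-type spleens 1 to 5, against 0.782 to 0.792 in knockout spleens 6 to 9 and 0.783 to 0.796 in wild-type spleens 6 to 10. The labels name no batch, both genotypes are in each range of numbers, and the cause was not tested. All spleens in both ranges lay above all dendritic cell libraries.

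The direction of the tissue difference in evenness turned round for the members with little shared sequence. Over the 13 with under 20% shared words, a set added after the data were seen, evenness was 0.559 ± 0.00859 in dendritic cells and 0.516 ± 0.0116 in spleens (SD), a difference of 0.0432 (permutation test, p = 2e-05). The highest spleen reached 0.543, the value of the lowest dendritic cell library. Evenness of this set without its copies Rpl3l, Rpl39l, Rpl7l1 and Rps4l was not computed. The lower share of all counts kept its direction in this set, at 0.427 ± 0.0794% in dendritic cells and 0.884 ± 0.168% in spleens.

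**Figure D3:**
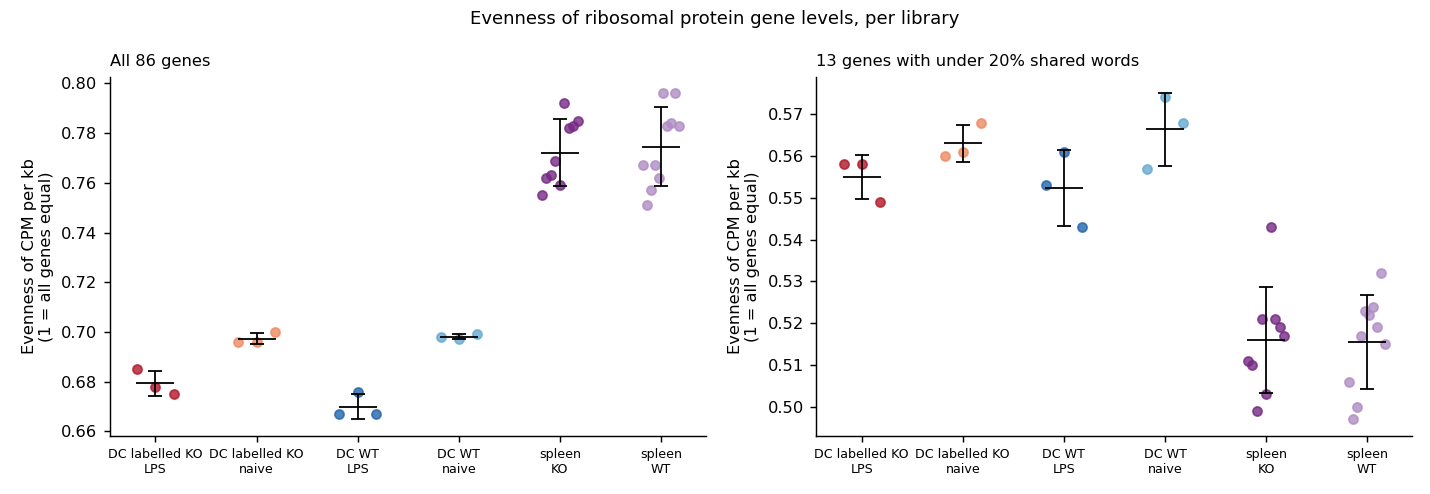
Evenness of member levels (y axis, 1 = all genes equal; axes do not start at 0) per library for all 86 members (left) and for the 13 members with under 20% shared words (right), by group, with means (long bars) and SD (whiskers). Dendritic cells lie below spleens on the left (0.667 to 0.700 against 0.751 to 0.796) and mostly above them on the right (0.543 to 0.574 against 0.497 to 0.543).

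The members' share of all counts was lower after LPS in plain library totals, and with TMM-scaled totals the difference did not pass. The 86 genes held 0.993, 1.10 and 0.949% in the LPS-treated libraries labelled knockout and 1.48, 1.27 and 1.34% in the naive ones. They held 1.05, 1.11 and 1.06% in the LPS-treated wild-type libraries and 1.42, 1.56 and 1.43% in the naive ones. All 6 LPS-treated libraries lay below all 6 naive ones. The means were 1.04 ± 0.0632% with LPS and 1.42 ± 0.102% without (SD, n = 6 each), a difference of -0.374 points (exact permutation test, two-sided, p = 0.00216, the smallest of 924 arrangements). With library totals scaled by TMM factors, which centre the bulk of genes, the means were 1.19 ± 0.0749% with LPS and 1.25 ± 0.0867% without (SD), and the difference did not pass (-0.0597 points, exact permutation p = 0.221). Rps27l, described below, rose with LPS. Without Rps27l the plain-total difference was -0.412 points (exact permutation test, p = 0.00216), and the TMM-scaled share without it was not computed. With TMM, 72 of 86 members had negative log2 fold changes in cells labelled knockout and 67 in wild-type cells, against 8760 and 8798 of 16965 genes. Members of 1 library are not separate observations. Summed markers of dividing cells were also lower with LPS, at 98.1 to 136 CPM, against 163 to 480 CPM in naive cells, and their part in the share was not tested. The naive library with the lowest share, replicate 3 labelled knockout, also had the lowest sum of those markers.

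Relative to the bulk of genes, the LPS response of single members was small, except for a few. In cells labelled knockout 14 of 86 members (16.3%) were lower and 2 (2.33%) higher by edgeR's quasi-likelihood test on TMM-scaled counts (adjusted p under 0.05 over 16965 genes), against a background of 13.4% of all genes lower and 15.3% higher. In wild-type cells 13 members (15.1%) were lower and 1 (1.16%) higher, against 15.8% and 18.1% of all genes. The shares of lower calls were near the background, and higher calls were fewer than among all genes. Either way, 28.7% of all genes were called in cells labelled knockout and 33.9% in wild-type cells. The members' median log2 fold change was -0.20 in cells labelled knockout (all genes -0.02) and -0.16 in wild-type cells (all genes -0.03). Their quartiles in wild-type cells were -0.31 and -0.02, against -0.55 and 0.45 for all genes. The groups did not overlap for 27 members in cells labelled knockout (31.4%, background 41.7%) and for 35 in wild-type cells (40.7%, background 50.9%). By subunit, 8 of 50 large and 6 of 36 small subunit genes were lower in cells labelled knockout, and 6 large and 7 small subunit genes in wild-type cells.

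Counts of calls depended on the scaling. Without composition factors the median of all genes was -0.35 in cells labelled knockout and -0.44 in wild-type cells. Then 50 members were lower in cells labelled knockout (background 29.4%) and 56 in wild-type cells (background 36.1%), and 1 was higher in each (background 8.49% and 9.43%). Relative to those medians the members stood at -0.18 in cells labelled knockout and -0.14 in wild-type cells. With TMM, 8 members were lower in both genotypes (57.1% of the list in cells labelled knockout and 61.5% of the wild-type list), among them Rpl3, Rpl3l, Rpl8, Rpl12 and Rpsa. Among all genes, 1770 were lower in both, which is 77.8% of the list in cells labelled knockout and 66.1% of the wild-type list. Rps27l was higher in both. The 2 comparisons share no libraries but share 1 estimate of the spread.

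**Figure D4:**
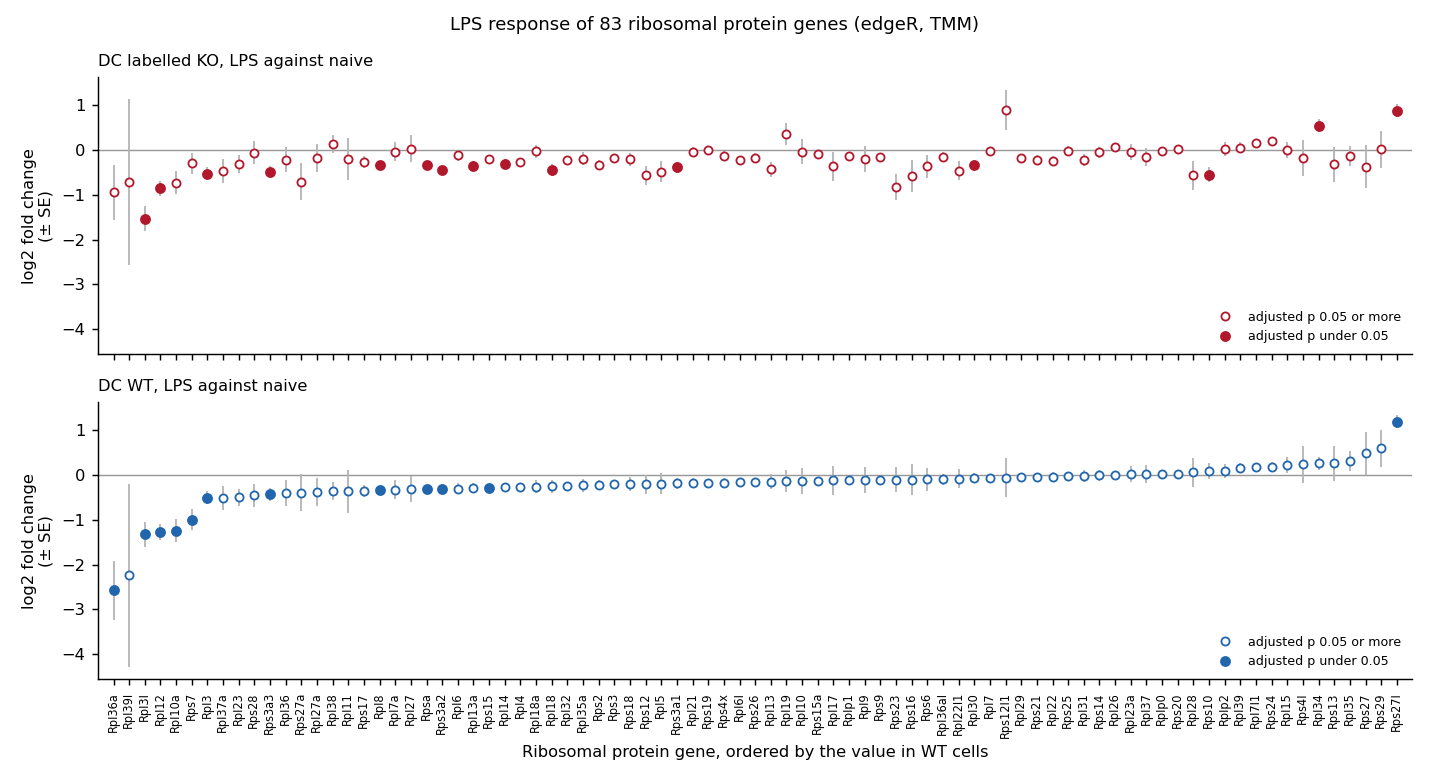
Log2 fold change of LPS-treated over naive cells (y axis, with SE) for 83 of the 86 members (x axis, ordered by the value in wild-type cells), for libraries labelled knockout (top) and wild-type (bottom), TMM scaling. Filled points passed at an adjusted p of 0.05. Most members lie slightly below 0, and Rps27l lies highest among the filled points in both panels at 0.88 and 1.19.

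Rps27l was the 1 member that rose with LPS in both genotypes. It encodes eS27L, a close copy of the small subunit protein eS27 (Rps27) and a p53 target in human cells. In TMM-scaled CPM, used for all values of the LPS comparisons below, cells labelled knockout had 911, 1160 and 1040 CPM after LPS and 547, 683 and 456 CPM when naive. Wild-type cells had 1380, 1250 and 1220 CPM with LPS and 538, 603 and 544 CPM without. Neither pair of groups overlapped. The log2 fold changes were 0.88 in cells labelled knockout (SE 0.14, adjusted p = 0.000909, edgeR) and 1.19 in wild-type cells (SE 0.14, adjusted p = 0.000113, edgeR), and both passed under all 20 alternatives tried. In plain CPM Rps27l lay between 530 and 1190 in dendritic cells (median 778) and between 110 and 202 in spleens (median 142), a mean 5.75 times higher in dendritic cells.

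The gene lies at chr9:66946086-66949516 (plus strand, GRCm38) and Rps27 at chr3:90212522-90213651 (minus strand). Their coding sequences match at 76.2% of 252 bases, and the first 60 bases are given with the 18 differing bases in capitals, because reads of the pair can be told apart here.
Rps27l: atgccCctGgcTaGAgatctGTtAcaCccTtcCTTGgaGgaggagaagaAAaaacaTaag
Rps27: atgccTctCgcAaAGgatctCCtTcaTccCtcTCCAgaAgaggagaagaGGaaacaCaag
Rps27 was near the bottom in these libraries, with cells labelled knockout at 0.381, 0.819 and 0.575 CPM after LPS and 0.404, 0.787 and 1.11 CPM when naive. It had 1.65, 1.39 and 0.605 CPM in LPS-treated and 0.967, 0.982 and 0.66 CPM in naive wild-type cells. Groups overlapped, and no call was made. Of its 50-base words 98.7% also occurred in other genes, against 22.4% for Rps27l.

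Among large subunit genes, Rpl3l and Rpl12 fell most steadily. Rpl3l, known as the heart and skeletal muscle copy of Rpl3, a protein near the peptidyl transferase centre, stood in cells labelled knockout at 2.18, 3.08 and 2.22 CPM after LPS and at 9.07, 5.95 and 6.67 CPM when naive. Wild-type cells had 2.64, 2.6 and 3.39 CPM with LPS and 4.49, 8.67 and 8.42 CPM without. The groups did not overlap, and the log2 fold changes were -1.53 (SE 0.28, adjusted p = 0.00222, edgeR) and -1.32 (SE 0.28, adjusted p = 0.00406, edgeR). In spleens Rpl3l lay between 0 and 1.2 plain CPM (median 0.138), and the 3 wild-type spleens with a count of 0 allow up to 0.0528 CPM by counting error alone. None of its 50-base words occurred in another gene.

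Rpl12, a protein at the base of the stalk, stood in cells labelled knockout at 8.89, 9.13 and 7.5 CPM after LPS and at 18, 12.3 and 15.9 CPM when naive. Wild-type cells had 5.31, 6.79 and 7.53 CPM with LPS and 14.6, 15.4 and 17.0 CPM without. Every LPS-treated library lay below every naive one, with log2 fold changes of -0.86 (SE 0.18, adjusted p = 0.00411, edgeR) and -1.26 (SE 0.18, adjusted p = 0.000342, edgeR). Rpl3 itself fell by less, with 9.93, 9.94 and 10.3 CPM in LPS-treated and 16.6, 12.6 and 14.2 CPM in naive cells labelled knockout. Its log2 fold changes were -0.53 in cells labelled knockout and -0.51 in wild-type cells. Other genes also held 49.4% of the 50-base words of Rpl12 and 85.6% of those of Rpl3, so the levels of both are uncertain. Rpl8, also near the peptidyl transferase centre, had 256, 249 and 248 CPM in LPS-treated and 345, 285 and 320 CPM in naive cells labelled knockout. In wild-type cells it had 269, 284 and 267 CPM with LPS and 319, 368 and 347 CPM without. Its groups did not overlap in either, and the log2 fold change was -0.34 in both (SE 0.09 each).

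Further large subunit genes were called in 1 genotype only, and no difference between the genotypes was called for any member by the interaction test. In wild-type cells Rpl36a fell by 2.58 on the log2 scale (SE 0.67), at a low level of 0.413, 0.336 and 0.151 CPM with LPS and 3.32, 0.786 and 1.33 CPM without. Rpl10a fell by 1.25 (SE 0.26), with 4.68, 3.81 and 6.99 CPM with LPS and 11.1, 12.3 and 13.2 CPM without. Both share most of their words with other genes, at 85.5% and 88.1%. In cells labelled knockout Rpl18, Rpl13a, Rpl30 and Rpl14 fell by 0.44, 0.35, 0.34 and 0.30 on the log2 scale. Rpl34 was the second gene to rise there, with 20.3, 25.9 and 22.2 CPM with LPS and 14.7, 18.4 and 13.7 CPM without (log2 fold change 0.55, SE 0.14, adjusted p = 0.0132 by edgeR). Its call was lost without composition factors, at a log2 fold change of 0.22 (adjusted p = 0.234, edgeR; 0.00167 to 0.234 over its alternatives).

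Among small subunit genes the falls were mostly slight. Rpsa, the laminin receptor that is also a small subunit protein, had 80.6, 85 and 78.2 CPM in LPS-treated and 116, 95.6 and 96.8 CPM in naive cells labelled knockout. It had 86.5, 86.3 and 87.9 CPM in LPS-treated and 106, 110 and 107 CPM in naive wild-type cells. The groups did not overlap, and the log2 fold changes were -0.34 and -0.31 (SE 0.09 each). Rps7 fell by 1.0 on the log2 scale in wild-type cells (SE 0.23), at 1.71, 2.78 and 1.82 CPM with LPS and 4.06, 4.7 and 3.86 CPM without. Rps15 fell by 0.28 there, and Rps10 by 0.55 in cells labelled knockout. Other genes also held 59.9% of the 50-base words of Rps7.

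The Rps3a family holds a gene and close sequence copies of it. Rps3a1, on chromosome 3, is the protein-coding gene, and Rps3a2 and Rps3a3 are processed pseudogenes whose transcripts match its coding sequence at 99.5% of 792 and 99.0% of 791 bases. Rps3a2 had 66.0, 58.7 and 62.1 CPM in LPS-treated and 88.5, 79.4 and 86.9 CPM in naive cells labelled knockout, while Rps3a1 had 25.6, 26.5 and 22.4 CPM in the LPS-treated and 35.3, 29.0 and 33.1 CPM in the naive ones. The pseudogene thus held more counts than the gene in each of these libraries. All 3 fell in cells labelled knockout, by 0.45 for Rps3a2, 0.48 for Rps3a3 and 0.39 for Rps3a1 on the log2 scale. In wild-type cells Rps3a2 and Rps3a3 fell by 0.30 and 0.43, and Rps3a1 had a log2 fold change of -0.19 that did not pass.

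The stalk genes, whose proteins recruit elongation factors, were not called in either genotype. Rplp0 had 341, 376 and 328 CPM in LPS-treated and 388, 338 and 331 CPM in naive cells labelled knockout, and 343, 385 and 385 CPM in LPS-treated and 348, 381 and 362 CPM in naive wild-type cells. Rplp1 lay between 119 and 151 CPM with LPS and between 128 and 163 CPM without, and Rplp2 between 35.3 and 52.1 CPM with LPS and between 35.1 and 49.5 CPM without. The LPS-treated and naive groups overlapped for all 3 genes in both genotypes. The abundant Rps9 was also not called. It had 1640, 1750 and 1750 CPM in LPS-treated and 1800, 1950 and 1800 CPM in naive wild-type cells, which did not overlap (log2 fold change -0.11, SE 0.08).

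**Figure D5:**
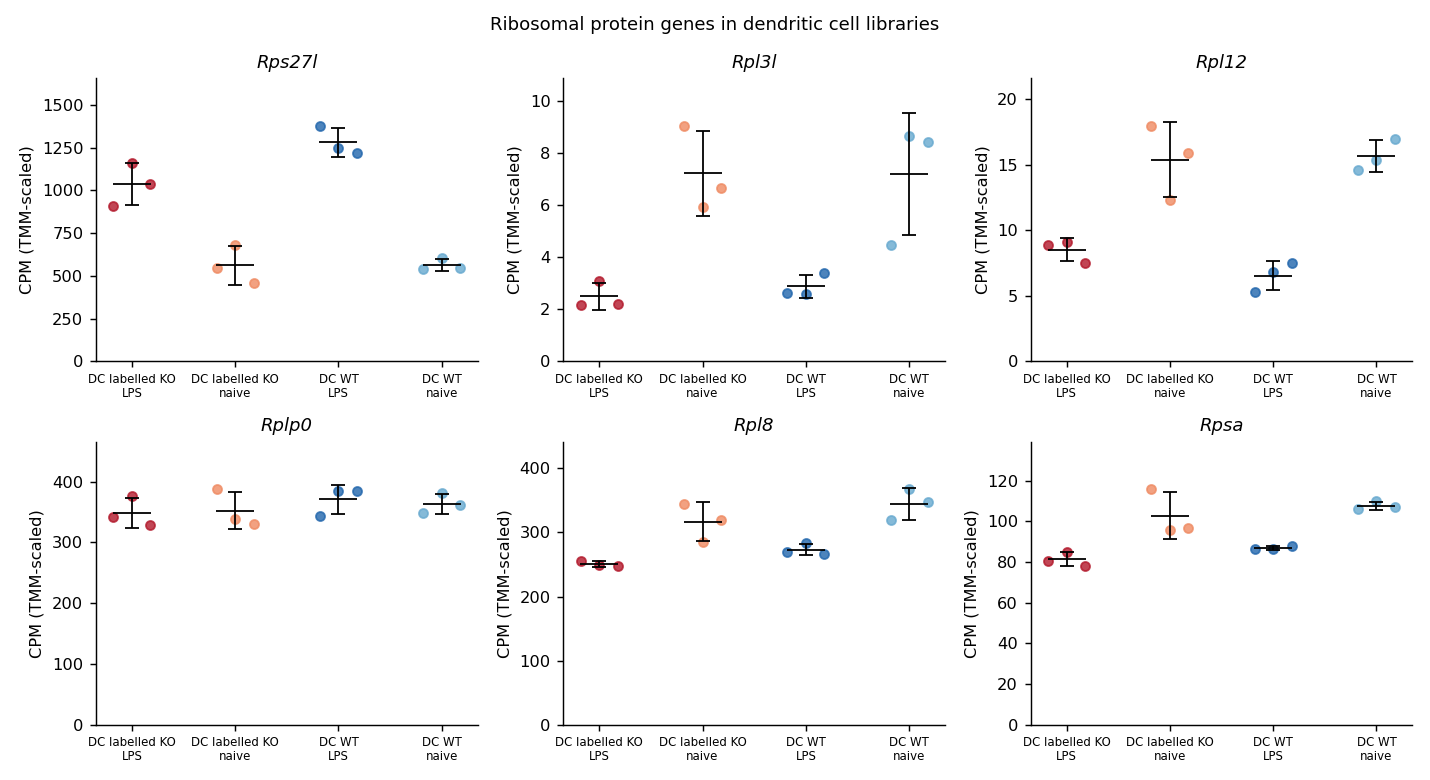
TMM-scaled CPM (y axis, from 0) of 6 members in the 12 dendritic cell libraries by group (x axis), with means (long bars) and SD (whiskers). Rps27l is higher and Rpl3l, Rpl12, Rpl8 and Rpsa are lower in every LPS-treated library than in the naive libraries of the same genotype label, while Rplp0 overlaps.

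Several of these genes have a diverged paralogue, and the paralogue held more counts per kb than the common form in 2 of the 7 pairs with counts. Besides Rps27l over Rps27 (1660 against 2.50 CPM per kb in dendritic cells), Rpl36al stood over Rpl36a at 102 against 2.54 CPM per kb. In spleens these pairs stood at 288 against 10.3 and 496 against 31.1 CPM per kb. More 50-base words of the common forms also occurred in other genes, at 98.7% for Rps27 and 85.5% for Rpl36a. The values were 22.4% for Rps27l and 63.3% for Rpl36al. How reads matching several places were counted is not stated, so which of each pair had more messenger is uncertain. Rpl22, a large subunit protein that binds RNA, stood at 172 CPM per kb in dendritic cells and 215 in spleens, and its paralogue Rpl22l1 at 19.1 and 26.2 CPM per kb. Rpl7l1 stood at 11.5 and 9.12 CPM per kb, against 114 and 344 for Rpl7. Rpl39l, known for its testis expression, had counts of 0 in 4 dendritic cell libraries, which allow up to 0.0713 CPM by counting error, and its mean was 0.856 CPM per kb in dendritic cells and 0.448 in spleens. Its common form Rpl39 stood at 48.0 and 92.6 CPM per kb. The pseudogene Rps4l stood at 1.06 and 2.67 CPM per kb, against 153 and 341 for Rps4x.

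Starts of the genes were read from RefSeq windows of GRCm38.p6, which held 61 of the 86 members. A run was taken as a C followed by at least 4 further C or T on the coding strand, as in TOP messengers. Counted from the annotated start itself, it was present in 13 members (21.3%) and in 3.01% of 27025 genes with a window. Counted from any C within 10 bases of the start, it was present in 38 members (62.3%) and in 34.4% of all genes. Bases before the counted C were not checked, so a tract may begin earlier, as in Rps27 below. The starts of 4 members described above are shown, each with 10 bases before the annotated start and the counted run in capitals.
Rps27: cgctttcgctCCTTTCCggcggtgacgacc
Rps9: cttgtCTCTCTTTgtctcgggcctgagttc
Rpl12: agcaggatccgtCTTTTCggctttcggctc
Rps27l: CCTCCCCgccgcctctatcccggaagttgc
They lie at chr3:90213629-90213658 (minus strand), chr7:3704031-3704060, chr2:32961702-32961731 and chr9:66946076-66946105 (plus strand). Rps27l has a second annotated start, whose window at chr9:66946403-66946432 held no run, and the 1 window of Rpsa, which fell, held none either. A run in such a window is a description of letters only.

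Other genes of translation were set beside the members, from lists written with earlier results of these data known. Of 54 tested ribosome assembly factors, 12 were lower and 2 higher in cells labelled knockout (median log2 fold change -0.23) and 17 lower and 3 higher in wild-type cells (-0.25). Of 77 mitochondrial ribosomal protein genes, 11 were lower and 1 higher in cells labelled knockout (-0.16) and 10 lower and 5 higher in wild-type cells (-0.15). Of 35 initiation factor genes, 5 were lower and 9 higher in cells labelled knockout (0.01) and 5 lower and 11 higher in wild-type cells (0.10). These shares stand against the same backgrounds of 13.4% lower and 15.3% higher in cells labelled knockout and 15.8% and 18.1% in wild-type cells.

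Of 10 elongation factor and other TOP genes, 4 were lower in cells labelled knockout (13.4% of all genes) and 3 in wild-type cells (15.8% of all genes), and none was higher by edgeR (15.3 and 18.1% of all genes). Npm1, a nucleolar chaperone, averaged 72.0 ± 6.58 CPM in LPS-treated and 110 ± 6.42 CPM in naive cells labelled knockout, and 65.2 ± 7.82 CPM in LPS-treated and 103 ± 11.1 CPM in naive wild-type cells (SD, n = 3 each). It fell by 0.61 on the log2 scale in cells labelled knockout and by 0.65 in wild-type cells. Eef2, which moves the ribosome along the messenger, fell by 0.52 and 0.50 in these genotypes, and Eef1d by 0.30 and 0.38. Eef1g fell by 0.63 in cells labelled knockout and had -0.46 in wild-type cells, where it did not pass (adjusted p = 0.055, edgeR). Rack1, a scaffold on the small subunit, had -0.25 and -0.22 and did not pass in either (adjusted p = 0.0508 and 0.0753, edgeR). Fau, which encodes a ribosomal protein fused to a ubiquitin-like one, did not pass either.

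Of 18 genes that act on TOP messengers or on ribosome production, 4 were lower and 4 higher in each genotype, beside those same shares of all genes. Larp1, which binds TOP messengers, rose by log2 fold changes of 0.96 in cells labelled knockout and 1.12 in wild-type cells, and Mtor by 0.64 and 0.54. Max rose by 0.86 and 1.18 and Rictor by 1.05 and 0.90. Myc, which drives ribosome production in many cells, averaged 4.90 ± 1.41 CPM in LPS-treated and 15.7 ± 5.59 CPM in naive cells labelled knockout, and 3.73 ± 1.81 CPM in LPS-treated and 24.0 ± 4.62 CPM in naive wild-type cells (SD, n = 3 each). Its log2 fold changes were -1.67 and -2.67. Rptor fell by 0.63 and 0.71, Rps6ka1 by 0.92 and 0.83, and Eif4ebp2, a repressor of cap-dependent initiation, by 0.67 and 0.71.

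The calls on single members varied with the libraries. Under all 20 alternatives Rps27l, Rpl12 and Rpl3l kept their calls in both genotypes, and in wild-type cells also Rpl8, Rpl10a, Rps7 and Rpsa. The other calls were lost in at least 1. The number of lower members in cells labelled knockout was 7 without naive replicate 2, 9 without naive replicate 4 and 5 without LPS-treated replicate 4 of that label, and Rps27l alone was higher without naive replicate 2 or LPS-treated replicate 3. It was 8 without the 3 libraries labelled knockout that hold Gpr34 reads. In wild-type cells the number was 20 without naive replicate 2 or 3 labelled knockout, which enter the shared spread, and 8 without naive wild-type replicate 2 or LPS-treated wild-type replicate 1. Counts over all genes are not given for these alternatives. A change in the members' calls thus cannot be told from a change in the calls of all genes.

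No member passed between genotype labels in dendritic cells. Of 86 members 0 were called in naive cells, 0 with LPS and 0 in the interaction by edgeR, against a background of 0.0% of all genes in each. At an unadjusted p under 0.05 there were 2 members in naive cells (2.33%), 10 with LPS (11.6%) and 1 in the interaction (1.16%), against 6.71, 11.3 and 4.0% of all genes. DESeq2 and limma voom also called 0 members in each. Among all 16965 genes DESeq2 called 46 higher and 30 lower in naive cells, 221 and 151 with LPS, and 10 and 11 in the interaction. The median log2 fold change of cells labelled knockout over wild-type was -0.09 in naive cells (all genes 0.00, 18 members positive and 68 negative) and -0.10 with LPS (all genes -0.01, 19 positive and 67 negative). The groups did not overlap for 8 members in naive cells (9.3%, background 13.1%) and 18 with LPS (20.9%, background 17.5%). The 2 genotype comparisons share no libraries, but 3 of the 6 libraries labelled knockout held over 100 Gpr34 counts.

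In spleen no member passed either, although nearly all leaned the same way. Of 86 members 0 were called by edgeR, against a background of 0.177% of the 20371 genes tested (0.0982% higher and 0.0785% lower). At an unadjusted p under 0.05 there were 9 (10.5%, against 17.4% of all genes), and DESeq2 and limma voom also called 0 members. Among all 20371 genes DESeq2 called 442 higher and 431 lower. The groups overlapped for every one of the 86 (0.0736% of all genes did not overlap). The log2 fold change of knockout over wild-type was positive for 83 members and negative for 3, with a median of 0.20 (all genes 0.01). Without composition factors 65 were positive, at a median of 0.08 (all genes -0.10), and 0 were called (background 0.0344% higher and 0.898% lower). Genes in 1 sample share its composition, so the 83 are not separate observations. The members' share of all counts was 1.9 to 4.7% in knockout spleens (median 2.86%) and 2.12 to 3.46% in wild-type spleens (median 2.52%), means of 2.85 ± 0.795% and 2.62 ± 0.401% (SD). The ranges overlapped, and the difference of 0.23 points did not pass (exact permutation test, two-sided, p = 0.481). It was 0.174 points without knockout spleens 4, 6 and 9 (exact permutation p = 0.365). It was 0.261 points among spleens numbered 1 to 5 (exact permutation p = 0.23, n = 5 each) and 0.247 points among those numbered 6 to 10 (exact permutation p = 0.746, 4 knockout and 5 wild-type spleens). With the number range as a term in edgeR's fit, added after the data were seen, 1 member, Rps2, was called higher (log2 fold change 0.40, adjusted p = 0.0408, edgeR), against 0.623% of all genes.

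The smallest unadjusted p in spleen was that of Rpl8. It lay between 541 and 1560 CPM in knockout spleens (median 938) and between 633 and 1070 CPM in wild-type spleens (median 819), ranges that overlapped. Its log2 fold change was 0.39 (SE 0.15), and the adjusted p by edgeR was 0.191. Rpl14, Rpl13a and Rplp0 had 0.44, 0.31 and 0.29, and none passed. Across the 86 genes Spearman's rho of GC content with the log2 fold change was 0.44, a description over genes of the same libraries. Red cell markers summed to 29800 to 159000 CPM in knockout and 23000 to 70000 CPM in wild-type spleens, and markers of exocrine pancreas to medians of 1010 and 145 CPM. The 12 markers of dividing cells all had positive log2 fold changes (median 0.31, 0 called) and summed to 512 to 1350 CPM in knockout and 537 to 1080 CPM in wild-type spleens. Of 77 mitochondrial ribosomal protein genes 71 were positive (median 0.21), and of 10 elongation factor and other TOP genes 9 were (median 0.27), with 0 called in both lists by edgeR. The part of these cells in the lean of the members was not tested. Without knockout spleen 6, 2 members were called higher, and the share of all genes called there is not given.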

How the data were processed

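For each library the authors deposited a table of raw counts, whole numbers listed by Ensembl gene ID. TopHat 1.3.3, Bowtie, SAMtools, bedtools, DESeq and mm9 are named without roles, per the submitters' processing notes. Of the annotation release, the strand setting and reads matching several places, nothing is stated in the sources used here. Symbols were found for 26090 of 29120 IDs. Coordinates and transcripts are those of GRCm38 (GENCODE M21), found by Ensembl ID.

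Genes were tested with edgeR 4.0.16 in R 4.3.3 by its quasi-likelihood method, with edgeR's filter on low counts, TMM factors, robust dispersions and Benjamini-Hochberg adjustment at 0.05 over all genes tested. The 12 dendritic cell libraries entered 1 fit (16965 genes, TMM factors 0.848 to 1.16) and the 19 spleens another (20371 genes, 0.793 to 1.07). The SE is the log2 fold change divided by the square root of F. Plain CPM uses library totals, and CPM per kb divides it by the length of the main transcript. Alternatives were DESeq2 1.42.0, limma voom (limma 3.58.1), RLE factors, unscaled totals (no composition factors), a fit without the filter, a fit of the compared libraries alone, a replicate block, and leaving out libraries. Leaving haemoglobin or the 3 libraries with Gpr34 reads out was also tried. The low-shared-word members, exon-union lengths, TMM-scaled totals, the share without Rps27l and the split of spleens by number were added after the data were seen. Shares and evenness, 1 value per library, were tested by permutation (scipy 1.17.1). The edgeR fit was tested on simulated counts. Named genes are up to 10 called rises and 10 falls per comparison, the paralogue pairs, the stalk genes and Rpsa, the 5 highest and 5 lowest members per sample type and of the tissue ratio, and called genes of the translation lists; others were chosen after their values were seen. The members and lists were chosen with earlier results of these data known. Counts of 0 were set against 3 counts of the total, which covers counting error only. Some genes are not reported by name here.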

Additional observations from a re-analysis of the deposited data

Results flagged for a closer look

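Knockout spleen 9 lay far from the other 8 knockout spleens in the share of counts held by the members, at 4.7%. The same library lay apart for Rplp0 at 828 CPM, Rps3 at 3230 CPM, Rps27 at 7.31 CPM, Rpl22 at 716 CPM and Rpl22l1 at 24.8 CPM, each its group's highest. Knockout spleen 8 lay apart for Rpl3l, at 1.2 CPM. These were 7 of 38 groups of spleen values examined. Chance flags about 1 group in 20, and values of 1 library are not independent of each other.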

How the results depend on the processing

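The share of all counts held by the members, LPS-treated against naive cells, differed by -0.0597 percentage points with TMM-scaled totals, where it no longer passed, and by -0.403 to -0.345 points when 1 library was left out. The tissue difference in evenness reversed to 0.0432 over the 13 members with under 20% shared words. The number of members lower with LPS in cells labelled knockout was 22 with limma voom, 50 without composition factors, 3 with only the libraries compared, 8 without the 3 libraries with Gpr34 reads, and 5 to 19 when 1 library was left out. There 1 member was higher without composition factors, with only the libraries compared and without those 3 libraries, and 1 to 2 when 1 library was left out. In wild-type cells the number lower was 21 with DESeq2, 56 without composition factors, 21 with only the libraries compared, and 8 to 20 when 1 library was left out, with 1 higher each time. DESeq2 called 3185 of all 16965 genes lower there, against 2679 in the main fit. Except without composition factors, the other counts here are given without those of all genes. A change particular to the members cannot be told from a change in all calls. The causes were not tested. In spleen 0 to 2 members were higher and 0 lower when 1 library was left out, and 1 was higher with the number range (1 to 5, 6 to 10) as a term. With a replicate block 11 members were lower and 2 higher in cells labelled knockout. In wild-type cells 12 were lower and 1 higher, and 0 were called by genotype. In their deviations from group means, 5 of 9 same-numbered spleen pairs correlated over 0.1, and 0 of the same-numbered dendritic cell pairs. Same-numbered spleen pairs ran from -0.0782 to 0.29 and differently numbered ones from -0.327 to 0.419. The main fits did not take the numbers as pairs. Whether same-numbered spleens are linked was not tested, and the main spleen results take no account of it. Of the 229 alternative values of these results, 206 stayed on the same side of the threshold and within 1.5 times for counts. A count of 0 that stayed at 0 was included in the 206. Counts by genotype label in dendritic cells stayed at 0 when any 1 library was left out. The main fit called 0.0% of all genes there, so such values say little on stability. Precision is limited by 3 libraries per dendritic cell group and, for members with copies, by reads that match several places.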
